A study of Mus musculus with 8 samples.

Results

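Imprinted genes are a set of 36 mouse genes, listed by name, that are expressed mainly or only from the copy inherited from 1 parent in at least some tissues. Their N6-methyladenosine (m6A) peaks were examined in mouse embryonic stem cells, either untreated or after Setd2 knockdown. Members were found in the authors' peak tables through the Ensembl identifier of each peak, matched to each gene by its location and strand in mm10. Of the 36 genes, 24 had at least 1 m6A peak, 11 had none assigned to them, and 1, Rtl1, could not be decided. The 24 genes held 58 of the 25815 control peaks and 60 of the 27612 Dox peaks. In all, 13110 Ensembl identifiers carried a peak in either list.

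The cells were feeder-free and grew as spheres in serum-free medium with the MEK inhibitor PD0325901, the GSK3 inhibitor CHIR99021 and leukemia inhibitory factor. Every library came from cells that carry the doxycycline (Dox)-inducible Setd2 knockdown. The control group received no Dox, and the Dox group received 1 µg/ml for 4 days, so Dox itself and the knockdown cannot be told apart. Each group had 2 input libraries and 2 libraries enriched with an m6A antibody (IP), and the authors called 1 peak list per group from all 4. The labels do not say whether replicates came from separate cultures or how many clones were used. With replicates pooled, each peak has 1 value per condition. The spread between replicates is therefore unknown, and nothing below is a test between conditions. Depth is unknown. The fold of a peak is the authors' ratio of IP over input, and its support is the log10 of the authors' false discovery rate (FDR), lower being stronger.

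Genomic imprints are DNA methylation marks laid down in the egg or sperm and kept on 1 parental copy after fertilization. SETD2 trimethylates lysine 36 of histone H3 along transcribed genes, and in the mouse oocyte this mark guides the DNA methylation of maternal imprints. The same histone mark is bound by METTL14, a subunit of the complex that writes m6A on nascent messenger RNA. Many imprinted genes control growth of the fetus and placenta, and several are retrogenes without introns. Peaks do not tell the parental copies apart.

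Most imprinted genes with a peak were called in control and Dox alike. Both lists held peaks of 21 of the 24 members (87.5%), against 79.9% of all identifiers. Peaks in the control list only were found for 3 members (12.5%), against 8.92% of all identifiers. No member had peaks in the Dox list only, where 11.1% of all identifiers lie. The members with control peaks alone were Peg12, Usp29 and Copg2, each with 1 peak. Among the 21 members with peaks in both lists, 7 had more peaks in the Dox list, 7 had fewer and 7 had the same number. Over all identifiers with peaks in both lists, 28.7% had more in the Dox list, 21.6% had fewer and 49.7% had the same number. A called peak depends on the amount of transcript as well as on the methyl mark. Some member peaks also lie opposite a peak of another identifier on the other strand, so a peak alone does not establish either for a gene. In bulk RNA, fewer methylated molecules, less RNA per cell and fewer cells that express a gene cannot be told apart.

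**Figure D1:**
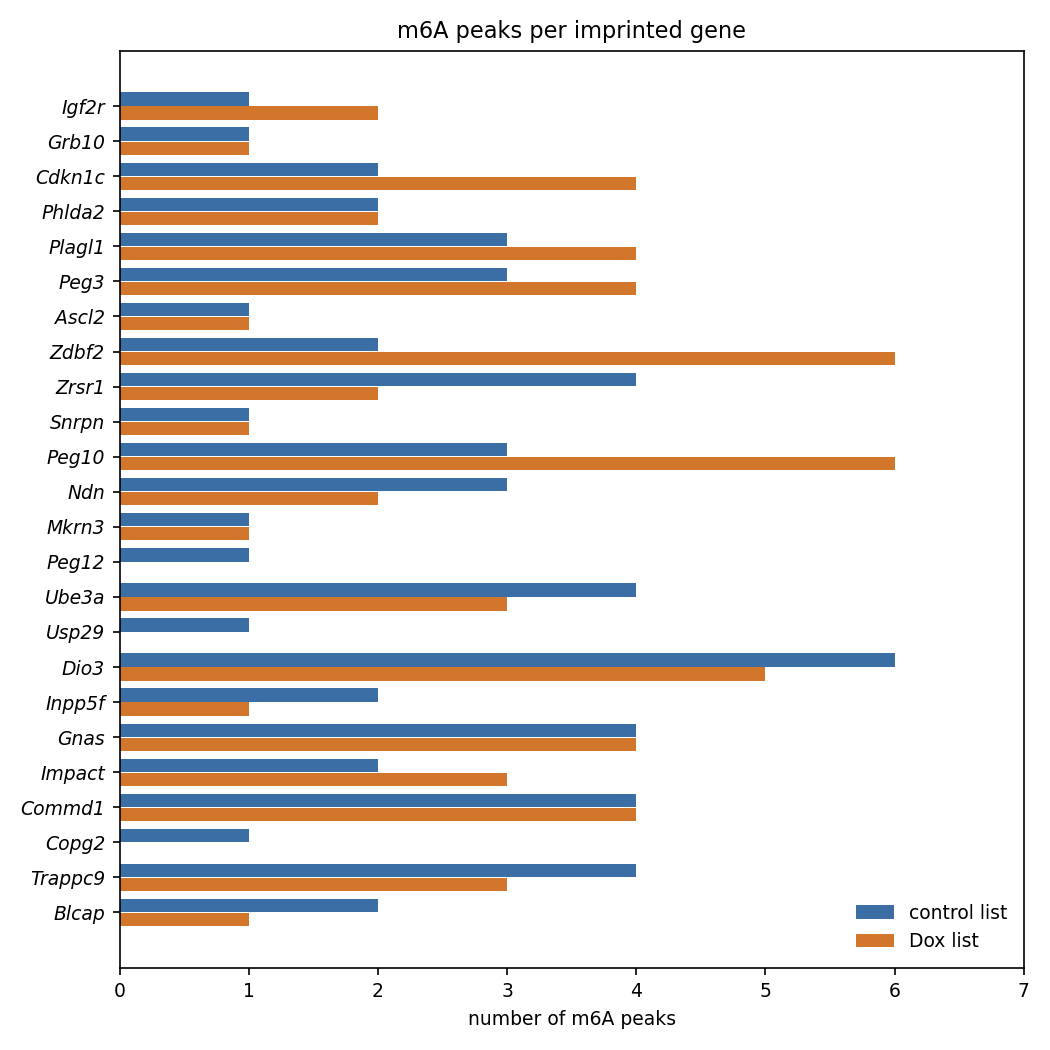
Number of m6A peaks (horizontal axis) for each of the 24 imprinted genes with a peak, in the control list (blue) and the Dox list (orange); each bar is 1 pooled list, so there are no error bars. Peg12, Usp29 and Copg2 have no orange bar, and Zdbf2 and Peg10 reach 6 peaks in the Dox list against 2 and 3 in control.

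No peak of either list was assigned to Igf2, the fetal growth factor gene, H19, its neighbouring noncoding RNA, or Dlk1, a transmembrane regulator of differentiation. The same held for Mest, Magel2, Nap1l5, Nnat, Sgce, the potassium channel gene Kcnq1, the transporter gene Slc22a18 and the zinc finger gene Zim1. A control peak on the strand of Zim1 lay 2636 nt beyond the 3' end of its RefSeq interval (fold 3.90, support -2.15). It had no Dox counterpart and was not counted. Its identifier may be that of Zim1, which cannot be read from the tables. If so, Zim1 would join the members with control peaks alone, and the member counts given here leave it out. Absence from a peak list does not show that a transcript is unmethylated or not expressed.

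Of the 58 control peaks, 7, on 5 members, reached the first 50 transcribed nucleotides of a RefSeq start. Promoter windows were found in the RefSeq table (GRCm38.p6, the assembly of mm10) for 28 of the 36 members. The 4 windows below are shown because a control peak covers the first transcribed bases there. Each gives 250 bases before the start in lower case and the first 30 transcribed bases, which the control peak covers, in capitals.
Peg12, chr7:62464481-62464760, minus strand: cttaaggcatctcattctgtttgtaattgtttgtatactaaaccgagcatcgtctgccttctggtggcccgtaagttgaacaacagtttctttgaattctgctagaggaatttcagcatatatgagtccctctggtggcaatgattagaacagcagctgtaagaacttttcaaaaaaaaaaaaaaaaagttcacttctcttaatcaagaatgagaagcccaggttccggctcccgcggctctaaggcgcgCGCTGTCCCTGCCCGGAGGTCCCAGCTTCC
Commd1, chr11:22982255-22982534, minus strand: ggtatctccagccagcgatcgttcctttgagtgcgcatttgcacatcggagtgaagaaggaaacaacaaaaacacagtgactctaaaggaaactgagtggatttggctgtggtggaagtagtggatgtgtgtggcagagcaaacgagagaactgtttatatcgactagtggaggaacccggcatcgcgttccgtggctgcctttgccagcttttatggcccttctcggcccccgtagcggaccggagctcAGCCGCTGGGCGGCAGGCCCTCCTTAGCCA
Phlda2, chr7:143502495-143502774, minus strand: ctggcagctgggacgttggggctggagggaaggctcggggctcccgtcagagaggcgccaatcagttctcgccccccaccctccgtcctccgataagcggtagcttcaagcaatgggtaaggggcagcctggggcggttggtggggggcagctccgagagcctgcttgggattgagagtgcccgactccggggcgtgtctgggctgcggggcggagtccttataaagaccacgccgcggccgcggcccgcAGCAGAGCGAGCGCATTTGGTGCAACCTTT
Dio3, chr12:110278980-110279259, plus strand: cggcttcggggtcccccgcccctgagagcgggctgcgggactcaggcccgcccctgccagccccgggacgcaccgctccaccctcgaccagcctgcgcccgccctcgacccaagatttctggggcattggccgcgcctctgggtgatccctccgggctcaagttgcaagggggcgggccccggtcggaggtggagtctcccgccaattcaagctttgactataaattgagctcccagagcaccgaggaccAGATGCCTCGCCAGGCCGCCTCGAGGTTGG
Over these starts, the control peak of Peg12 had no overlapping Dox peak, whereas those of Commd1, Phlda2 and Dio3 did. The folds were 39.4 and 5.68 for Commd1 in control and Dox, and 8.34 and 3.15 for Phlda2. Dio3 had control folds of 8 and 4.92 and Dox folds of 5.42 and 6.15, from rows that overlap each other. A second peak of Commd1, over an internal start, had folds of 7.03 and 5.09. The fifth member was Gnas, whose control peak at an internal start (fold 4.92, support -3.32) had no Dox counterpart. So 2 of the 7 control peaks at starts lacked an overlapping Dox peak (28.6%, exact 95% interval 3.67% to 71.0%), and 24.9% of the 2572 such control peaks of all genes did. All 5 Dox peaks of members at starts overlapped a control peak, so 0 of 5 lacked one (exact interval up to 52.2%), against 9.65% of the 1720 such Dox peaks of all genes. Over all genes, peaks at starts had a median Dox over control ratio of 0.540 over 1931 overlapping pairs.

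The letters of the 300-base windows were also searched on both strands. GGACT, a common form of the m6A consensus, or its reverse complement AGTCC was present in 12 of the 42 windows of members (28.6%) and in 45.5% of all 32851 windows. TGCCGC, the core of the motif bound by the imprint-protecting zinc finger protein ZFP57, or its reverse complement GCGGCA was present in 12 of the 42 windows (28.6%), from 11 genes, against 11.6% of all windows. The median count of CG pairs was 17 in windows of members and 7 in all windows. Several windows come from the same gene, and a match is only a match of letters. Of the 300 bases, 250 lie before the start, and AGTCC places GGACT on the strand not transcribed from that start. The GGACT percentages therefore do not count m6A sites in RNA.

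Of 7 members that act on growth, 4 had peaks, all in both lists, and Igf2, H19 and Dlk1 had none. Igf2r encodes the receptor that clears insulin-like growth factor 2. Its single control peak lay near the 3' end (chromosome 17, 12683634 to 12686724, 4 exonic blocks), with a fold of 11.5 and support of -228. The overlapping Dox peak had a fold of 6.18 and support of -93.5, and a second, weak Dox peak (fold 1.49, support -2.03) had no control counterpart. Cdkn1c, a cyclin-dependent kinase inhibitor gene, had 2 control and 4 Dox peaks. Its wide control peak (chromosome 7, 143458968 to 143460285, fold 33.4, support -103) was overlapped by 3 separate Dox peaks, with folds of 7.92, 2.94 and 3.13. At its 5' end the control fold was 8.46 (support -12.0), and the Dox fold was 23.9 (support -5.37). The fold was thus higher in the Dox list while the support was weaker. The wide control peak has a near twin on the opposite strand under another identifier, with a fold of 35.7 and the same support of -103. The corresponding Dox twin had a fold of 8.44 beside 7.92. Whether reads were counted by strand is not stated in the labels, so the strands cannot be told apart.

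Phlda2, a placental growth repressor gene, had 2 peaks in each list, and both overlapped. Besides the peak at its start, the peak at its 3' part had folds of 3.40 in control and 1.89 in Dox. Grb10, an adaptor that dampens insulin receptor signalling, went the other way. Its single control peak (chromosome 11, 11933147 to 11933387) had a fold of 3.61 and support of -9.74. The Dox peak spanned all of it, from 11933057 to 11933477, with a fold of 6.86 and support of -59.0. Among the members, this was the pair with the largest gain in support in the Dox list.

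Transcription factor and other nuclear protein genes held 14 control peaks, not counting the one beyond the Zim1 interval. All of them had an overlapping Dox peak, where 19.3% of all control peaks had none. Of their 18 Dox peaks, 6 had no control counterpart, as did 29.1% of all Dox peaks. Plagl1 encodes a zinc finger factor that regulates other imprinted genes. Its top peak had identical bounds in both lists (chromosome 10, 13128639 to 13129118), with a control fold of 44.0 and a Dox fold of 13.8. The control FDR of this peak is listed as 0, and its Dox support is -201, the strongest of the set in each list. Its other 2 control peaks had folds of 4.89 and 1.96, with 4.14 in the Dox peak beside the first, and a Dox peak of fold 10.8 (support -1.80) had no control counterpart. Peg3, a large zinc finger gene, had 3 control peaks with folds of 3.26, 6.34 and 19.4 in transcript order, and all 3 were called in Dox, with folds of 2.96, 3.37 and 3.15. The last of them, at 6707694 to 6708143 on chromosome 7, went with support values of -77.6 in control and -4.93 in Dox. The strongest control peak of Peg3 thus had about the same fold as its neighbours in the Dox list. A further Dox peak of Peg3 (fold 2.22, support -2.19) had no control counterpart. Ascl2, a placental bHLH factor gene, had folds of 18.5 and 2.59 at support values of -4.81 and -2.05, so both peaks were weak.

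Zdbf2, a zinc finger gene, had 2 control and 6 Dox peaks. Both control peaks overlapped Dox peaks of higher fold, 5.33 beside 10.3 and 3.62 beside 5.29. The other 4 Dox peaks, with folds from 3.72 to 9.76 and support values from -4.87 to -1.38, had no control counterpart. Zrsr1, a retrogene for a splicing factor inside an intron of Commd1, had 4 control peaks with folds of 3.69, 2.18, 2.40 and 4.85. The first 3 fell inside a single Dox peak (22973215 to 22973991 on chromosome 11, fold 6.51, support -9.72), and the last overlapped a Dox peak of fold 6.05. All 4 pairs had the higher fold in the Dox list, but 3 of them share the same Dox peak. The third control peak lies opposite a stronger Commd1 peak (fold 7.03). Snrpn, which encodes a core protein of small nuclear ribonucleoproteins, had 1 peak in each list, over 3 exonic blocks, with folds of 7.49 and 3.60 and support values of -191 and -73.7. A further identifier over the same exons had folds of 16.5 and 7.59, and another 6.29 and 3.45. The Snrpn interval holds 3 identifiers on its strand, whose peaks share exons and reads. Snrpn and Zrsr1 have close paralogues elsewhere in the genome, which makes their values uncertain.

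Besides Snrpn, 5 members lie in the Prader-Willi and Angelman region of chromosome 7. Of their 9 control peaks, 4, on 3 genes, had no Dox counterpart, where 19.3% of all control peaks had none. The count is small and carries no interval. An Ndn peak (support -2.66) and a Ube3a peak (-1.84) among them lay above -5, where 40.4% of all control peaks lack a counterpart. The Peg12 peak (-11.3) and another Ube3a peak (-7.33) lay below -5, where 7.56% do. Peg12, an intronless gene of the FRAT family of GSK3-binding proteins, had its only peak at its 5' end (62464180 to 62464510, fold 48.0, support -11.3). The fold is the highest among the control peaks of the set, but it equals 39 whole steps of 1.23. Among control peaks of all genes with support above -8 and folds of 8 to 40, 77.3% are within rounding whole multiples of 1.23. By chance 6.43% would be, so folds of weak peaks take coarse steps. Peg12 itself lies outside these limits. A match alone does not mark a weak peak. The start peak of Commd1 (fold 39.4, support -245) also equals a whole number of steps, 32. Ube3a, a ubiquitin ligase gene, had 4 control and 3 Dox peaks. Near its start the control peak had a fold of 24.0 (support -21.5) and the Dox peak 5.15 (support -2.54). An antisense identifier had almost the same bounds there, with folds of 36.3 and 5.42. Its control peak of highest fold (33.2, support -7.33, 27 whole steps of 1.23) had no Dox peak, nor had the weak one beside it (5.33). A further pair of weak peaks had folds of 3.47 and 2.26. Ndn, an intronless MAGE family gene, had 3 control peaks with folds of 3.20, 3.32 and 6.56. Its 2 Dox peaks had folds of 2.65 and 3.15, and every support value of Ndn lay between -2.99 and -2.48. Mkrn3, an intronless gene for a zinc finger ubiquitin ligase, had 1 wide peak in each list, with folds of 9.02 and 11.2 and support values of -8.52 and -6.08.

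Peg10 derives from a retrotransposon and is needed for the placenta. It had 3 control and 6 Dox peaks, and only the first of each overlapped, with folds of 3.16 and 4.94. The other 2 control peaks had support values of -3.39 and -3.18, and the other 5 Dox peaks had support values from -3.79 to -1.85. The highest folds, 6.15 in control and 7.59 in Dox, belong to these peaks without a counterpart. Most of its peaks thus lay at different places in the lists, at a strength where 40.4% of all control peaks and 52.1% of all Dox peaks lack a counterpart. For Rtl1, also derived from a retrotransposon, the only identifier on its strand had 1 peak per list, with folds of 2.88 and 3.21. These coincide with peaks of the noncoding RNA Meg3 on the other strand (2.78 and 3.21). They were not assigned to Rtl1.

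Among enzyme genes, Dio3, which inactivates thyroid hormone, had 6 control and 5 Dox rows, some of which repeat the same place. Its 3' peak had folds of 10.4 in control and 3.75 in Dox, with support values of -16.1 and -6.02. Its middle peak had 5.38 in both control rows and 4.73 and 4.79 in the Dox rows. Usp29, a deubiquitinase gene, had 1 control peak (chromosome 7, 6963652 to 6963771, fold 12.3, support -2.34) and no Dox peak. A further identifier within the Usp29 interval had overlapping peaks in both lists, with folds of 23.4 and 20.6, and which of them is Usp29 cannot be read from the tables. With both counted, 22 members had peaks in both lists. Inpp5f, a phosphoinositide phosphatase gene, had a control peak of fold 32 (support -7.01, 26 whole steps of 1.23) without a Dox counterpart. Its second peak, with folds of 2.38 and 4.52, was weak in both lists.

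Gnas encodes the stimulatory G protein alpha subunit and other products from several starts. It had 4 peaks in each list. A pair spread over 4 exonic blocks had folds of 5.35 and 3.02, with support values of -45.5 and -36.8. Near the 5' end 2 control peaks (17.8 and 13) overlapped 1 Dox peak of 9.22. These control peaks and the one over 4 blocks have twins on the antisense strand with folds of 17.8, 12.5 and 4.90. The other 2 Dox peaks, with folds of 14.1 and 1.61, were weak and had no control counterpart. Impact, a regulator of the translation kinase GCN2, had 2 control and 3 Dox peaks. Its middle Dox peak (fold 2.90, support -13.6) was the only Dox peak of the set with support at or below -5 without a control counterpart. Its last pair had folds of 1.83 and 2.72, and its first 4.51 and 3.07.

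Commd1, a copper and protein trafficking gene, had 4 peaks in each list, in the same 4 places. In transcript order the control folds were 39.4, 7.03, 4.80 and 2.56, and the Dox folds were 5.68, 5.09, 3.01 and 2.81. The control folds decreased towards the 3' end, and the Dox folds did so over a narrower range. At the 3' end support was -19.9 in control and -38.5 in Dox, while at the start it was -245 and -46.6. Trappc9, a vesicle tethering subunit gene, had 4 control and 3 Dox peaks. Its strongest control peak had a fold of 4.28, with a Dox fold of 1.63 in the overlapping peak, and the other pairs lay between 2.06 and 2.46 in both lists. Copg2, a coat protein subunit gene, had only a control peak (chromosome 6, 30812749 to 30815935, fold 2.46, support -6.04). Blcap, which shares its locus with Nnat, had folds of 6.61 and 4.38 at its 3' end, and a weak control peak of 2.29 without a Dox counterpart.

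**Figure D2:**
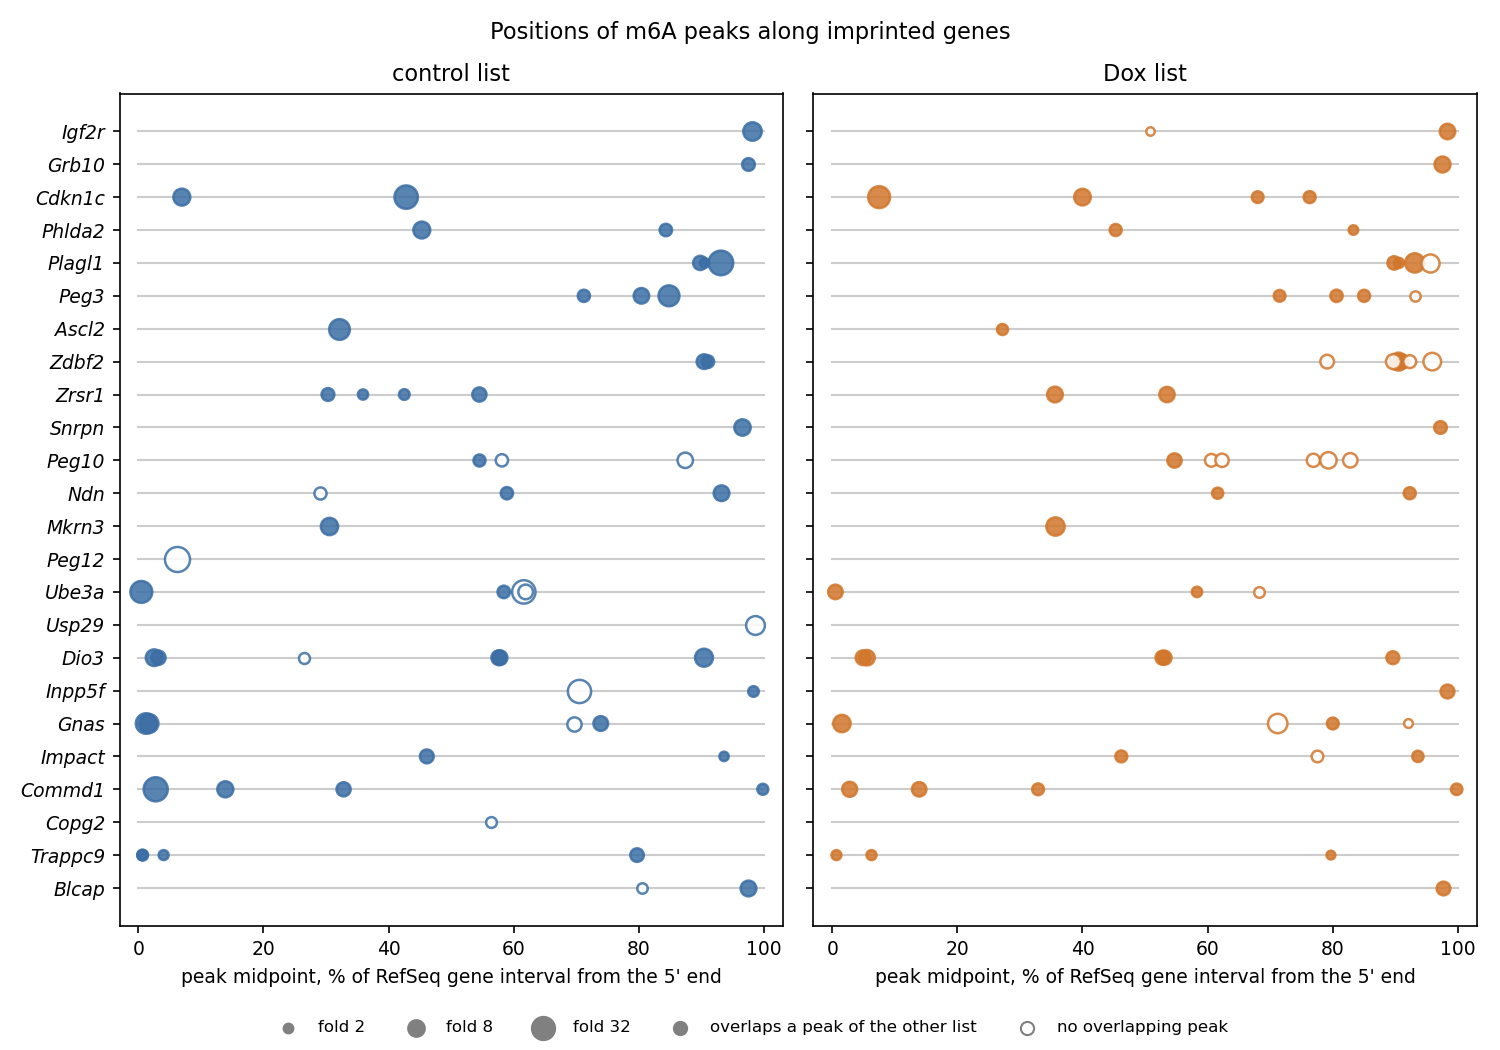
Midpoints of all peaks of the 24 imprinted genes along each gene's RefSeq interval (horizontal axis, percent from the 5' end), in the control list (left) and the Dox list (right); larger circles have higher folds, and open circles lack a counterpart in the other list. Open circles gather in Peg10 and Zdbf2 on the right, and the circles of Commd1 and Ube3a nearest the 5' end are smaller on the right than on the left.

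By peak, the percentages for imprinted genes lay near those for all genes. Of the 58 control peaks 12 had no overlapping Dox peak (20.7%, exact interval 11.2% to 33.4%), against 19.3% of all control peaks. Among Dox peaks, 16 of 60 lacked a control counterpart (26.7%, 16.1% to 39.7%), against 29.1%. Most peaks without a counterpart were weak, with support above -5 for 8 of the 12 control and 15 of the 16 Dox peaks. The same held over all genes, where 74.8% of such control peaks and 77.2% of such Dox peaks had support above -5. With support at or below -5, 4 of 35 control peaks lacked a counterpart, 1 each in Peg12, Ube3a, Inpp5f and Copg2 (11.4%, 3.20% to 26.7%), against 7.56% of all such peaks. Among Dox peaks of that strength it was 1 of 28 (3.57%, 0.0904% to 18.3%), against 11.6%. Every interval of the set included the value of all genes. These intervals are for counting error alone and treat each peak as independent, although peaks of 1 gene share a transcript. By position, 7 control and 4 Dox peaks had their centre in the first 500 nt of the RefSeq interval, while the 3' end had 9 and 11 within 1000 nt. The 7 control peaks came from 5 members and include rows of Dio3 that overlap each other. Percentages over all genes were not computed for these positions.

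**Figure D3:**
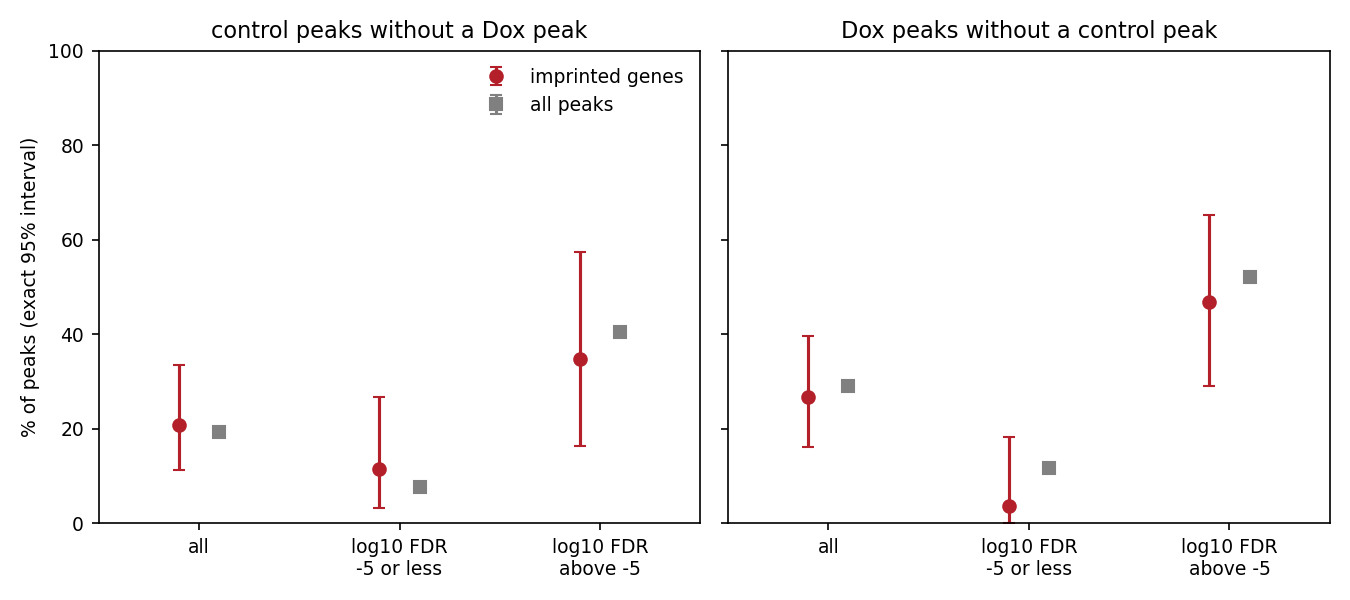
Percent of peaks that no peak of the other list overlaps, for control peaks (left) and Dox peaks (right), for peaks of all strengths and on either side of a log10 FDR of -5; red circles are peaks of imprinted genes, grey squares all peaks, and bars are exact 95% binomial intervals for counting error. Each red interval includes the grey value beside it.

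Folds of overlapping peaks were mostly lower in the Dox list, as they were over all genes. Of 46 pairs, 16 had the higher fold in the Dox list (34.8%, against 37.5% of all 20832 pairs). The median Dox over control ratio was 0.761 (quartiles 0.521 and 1.25), against 0.847 (0.565 and 1.21) over all pairs. For control peaks of support at or below -5 it was 0.663 in 31 pairs, against 0.751 over all genes. Above -5 it was 1.06 in 15 pairs, against 1.16. The lowest ratios belonged to Ascl2 (0.140), the start of Commd1 (0.144) and the third peak of Peg3 (0.162). The highest belonged to 2 peaks of Zrsr1 (2.99 and 2.71) and the 5' peak of Cdkn1c (2.83). Their Dox folds, 6.51 and 23.9, equal 6 and 22 whole steps of 1.0845. The control fold of Ascl2, 18.5, equals 15 steps of 1.23. Among Dox peaks of all genes with support above -8 and folds of 8 to 40, 80.4% are whole multiples of 1.0845, against 7.5% by chance. The Zrsr1 peak lies outside these limits. By gene, the highest fold was greater in the Dox list for 5 of the 21 members with peaks in both, against 26.3% of all identifiers. These were Grb10, Zdbf2, Zrsr1, Peg10 and Mkrn3. The highest folds of Peg10, 6.15 and 7.59, belong to peaks at different places, neither with a counterpart. The best support was stronger in the Dox list for 6 of the 21, against 33.8%. Folds of lists called separately depend on depth and pull-down, whose part in these ratios was not tested.

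**Figure D4:**
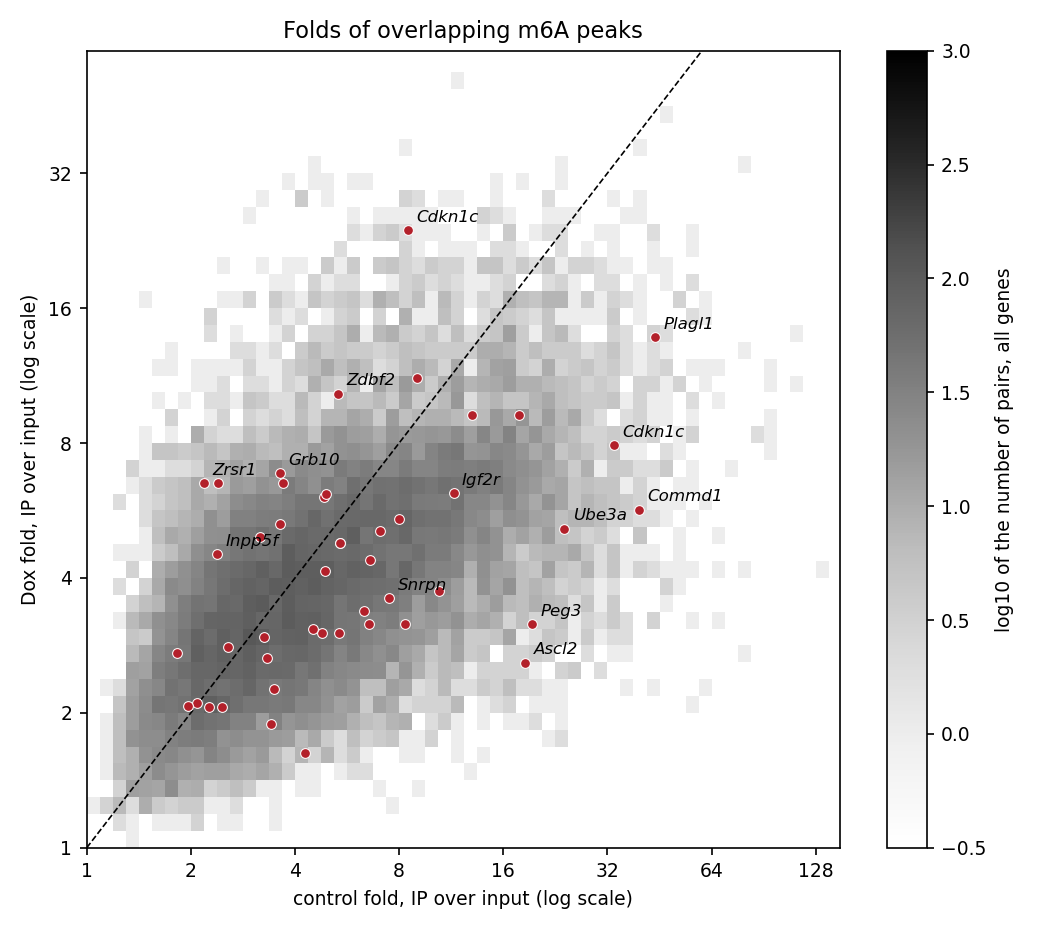
Control fold (horizontal, log scale) against Dox fold (vertical, log scale) for 46 overlapping peak pairs of imprinted genes (red points, the extremes labelled) over the density of all 20832 pairs (grey); the dashed line marks equal folds. Commd1, Peg3 and Ascl2 lie far below the line, and Zrsr1, Grb10, Zdbf2 and a Cdkn1c peak lie above it.

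Other genes of the same imprinted clusters were described from a list of 48. Peaks in both lists were found for 19, in control only for 1, in Dox only for 3 and in neither for 25. Of all identifiers with a peak, 79.9% were in both lists, 8.92% had control peaks alone and 11.1% Dox peaks alone. Of their 49 control peaks 14 lacked a Dox peak (28.6%, 16.6% to 43.3%), and of their 45 Dox peaks 13 lacked a control peak (28.9%, 16.4% to 44.3%). Over all genes these percentages were 19.3% and 29.1%, and both intervals include them. The highest folds among genes in both lists were those of Sfmbt2, a Polycomb-related gene (19.7 in control, 4.95 in Dox), and H13, a signal peptide peptidase gene (18.5 and 6.51). Begain (16.0 and 11.9) and Atp10a, a phospholipid flippase gene (14.8 and 15.2), followed, with support no stronger than -4.80. Each value is the highest of its list and need not come from overlapping peaks. Of the control peaks, 3 of 4 in H13 and 1 of 2 in Sfmbt2 had no Dox counterpart. Peg13, a noncoding RNA inside Trappc9, had a control peak only (fold 14.8, support -2.6). Dox peaks only were found for Herc3 (11.9, support -2.51), Zim3 (4.70, support -1.59) and Mrpl23 (1.96, support -8.39). Peg13 and Zim3 were matched by location without regard to strand.

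Of 22 genes that set or keep imprints, 19 had peaks in both lists, Kdm1b, a histone demethylase gene, in control only (fold 3.20), and 2 in neither. Among all identifiers with a peak, 79.9% had peaks in both lists and 8.92% in control only. They held 74 control peaks, 16 without a Dox peak (21.6%, 12.9% to 32.7%), and 77 Dox peaks, 26 without a control peak (33.8%, 23.4% to 45.4%). Both intervals include the 19.3% and 29.1% of all peaks. The highest folds were those of Arid4a (27.1 in control, 5.15 in Dox), the H3K9 methyltransferase gene Ehmt2 (23.4 and 5.23), the DNA methyltransferase gene Dnmt3a (14.8 and 19.5) and the demethylase gene Tet2 (18.5 and 15.2). Ctcf, the insulator protein gene, shared the value of 18.5 in control and had 9.22 in Dox. Each value is the highest of its list, so the control and Dox values of a gene need not come from overlapping peaks. The support of the peaks with these folds is not given here, and folds of weak peaks take coarse steps. Zfp57 and Trim28 were named after their values were seen. Zfp57 had 2 control and 5 Dox peaks, with highest folds of 11.5 and 12.6. Trim28, the gene of the corepressor that ZFP57 recruits, had 3 control peaks (highest fold 5.27) and 1 Dox peak (1.45), none of them overlapping. Its best support was -39.7 in control and -116 in Dox, so the list with the higher fold had the weaker support.

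Setd2 itself had 10 control and 6 Dox peaks, which do not measure its transcript level and so do not show the extent of the knockdown. All 12 naive stem cell markers examined, Pou5f1, Sox2 and Nanog among them, had peaks in both lists. So did 79.9% of the identifiers with a peak in either list, a share that leaves out genes without a peak. Of 8 fibroblast markers Col1a1 had peaks in both lists and Pdgfrb in control only, and of 6 primitive endoderm markers Gata4 had a control peak only.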

How the data were processed

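The 8 libraries were m6A IP and input from control and Dox cells, 2 each. Per the submitters' processing notes, mm10, TopHat2 2.1.1 and FastQC 0.11.5 were used. The names of the deposited tables hold exomePeak, whose version and settings the labels do not state. The authors deposited 1 pooled table per condition, holding a fold (ratio of IP over input), a p-value and the log10 p and log10 FDR scores of each peak. Their shorter list per condition was checked to equal the table's rows with a fold of 2 or more and a p no higher than 1e-05.

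Overlap meant 1 or more shared exonic nucleotides on 1 strand, found by a Python script in place of the planned bedtools. Each control peak was paired with the Dox peak sharing most nucleotides. An identifier belonged to a gene when at least 50% of its peak midpoints lay in the RefSeq interval (GRCm38.p6) on its strand. The strand came from the promoter table for 28 members and from general knowledge for 8. Genes of the other lists without an entry in the promoter table were matched by location alone. Peg13, Zim3, Arid4a, Col1a1, Pdgfrb and Gata4 are among them. Where several identifiers fitted, that of lowest number was used. An identifier whose peaks all have an opposite-strand twin, sharing at least 50% of the shorter peak, was left undecided. Every member with a peak was named with its peak numbers and highest folds. Single peaks were given for members in 1 list, those of strongest FDR or most peaks, and the 3 highest and 3 lowest fold ratios; others were added after their values were seen. Other genes were named by highest fold, at most 4 per list and class. Sequences are RefSeq promoter windows of 300 bases. Coordinates are 1-based. The members and lists were chosen with earlier results of these data known. Overlap calls had 0 errors on 300 simulated peaks per list. Alternatives were stricter peak limits, other overlap rules and other identifier rules. Python 3.11.15, numpy 2.4.6, pandas 2.3.3, scipy 1.17.1 and matplotlib 3.10.9 were used.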

Additional observations from a re-analysis of the deposited data

How the results depend on the processing

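No paired analysis was possible because each deposited table pools both replicates, so leaving out a replicate was not possible either. Of 58 values recomputed under alternatives, 48 stayed within their interval, the quartiles of the ratios or 1.5 times the count, and 10 did not. The number of members with peaks in both lists was 13 at a fold of at least 4 in both lists, against 21. The percentage of member control peaks without a Dox peak was 34.3% with both lists at or below a log10 FDR of -5 and 44.4% with folds of 4 or more, where all control peaks gave 21.0% and 45.7%. For member Dox peaks without a control peak it was 15.6% in the authors' stricter lists, 43.3% at a fold of at least 4 and 3.57% with only Dox peaks required to reach a log10 FDR of -5, where all Dox peaks gave 22.3%, 31.6% and 11.6%. Among other genes of imprinted clusters, those with Dox peaks numbered 13 in the stricter lists, 14 at or below a log10 FDR of -5 and 11 with folds of 4 or more, against 22. Among genes that set or keep imprints, those with control peaks numbered 13 at a fold of at least 4, against 20. These limits leave fewer peaks by construction. The median ratio of Dox to control fold lay between 0.681 and 0.847 under all alternatives. The settings with all identifiers of an interval, without opposite-strand twins and without Dio3 were chosen after seeing the data. Depth is unknown and limits every fold of a weak peak.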
